A study of Mus musculus with 16 samples.

Results

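Bladder expression is described here for the 10 T cell and cytotoxic granule genes Cd3e, Cd3d, Cd3g, Cd4, Cd8a, Gzma, Gzmb, Gzmk, Ccl5 and Pdcd1. They were found through the accession carried by each array probe, which gave 12 of 55681 probes, and the brightest probe kept for each gene was tested, so they are 10 of 26789 genes tested. RNA from the bladder body of C57BL/6 mice was hybridized to 1-colour Agilent SurePrint G3 arrays, 1 bladder to an array. The groups, with 4 bladders each, were MAT males and MAT females at 12 months of age and AGED males and AGED females at 27 to 30 months. No treatment or transgene is given in the labels. The tissue was not sorted, so each value sums over muscle, urothelium, stroma and immune cells. All 5 smooth muscle markers and all 5 urothelium markers tested were well above background on all 16 arrays.

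T cells recognise antigen through a receptor that signals by way of the CD3 chains, and the coreceptors CD4 and CD8 mark helper and cytotoxic T cells. Cytotoxic T cells and natural killer cells store granzymes, serine proteases that perforin helps into a target cell, and secrete the chemokine CCL5. PD-1, encoded by Pdcd1, is an inhibitory receptor of activated T cells. Such cells are sparse in the bladder wall and gather there in inflammation.

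Levels are log2 processed signals less the 75th percentile of the same array, so 0 is the signal at that percentile and a difference of 1 is 2-fold. Levels of different genes are not compared, since each probe responds in its own way. A gene was called at an adjusted p under 0.05 with at least a 2-fold difference (limma over all genes tested, Benjamini-Hochberg adjustment, given below as adjusted p). Where the age difference was compared between the sexes, no fold limit was set. Differences between ages are AGED minus MAT, with 95% confidence intervals in parentheses, and follow the ages deposited with the arrays. These directions are the opposite of those that the study gives for the genes it lists by direction with age. For 8 such genes tested, 8 ran the other way in males and 8 in females, and likewise in the deposited value table. Which is right cannot be told from the labels and files. If the ages were exchanged, every sign between ages would turn and the names MAT and AGED would change places throughout, including in the comparisons of the sexes and in the name AGED male replicate 1. The sizes and tests would stay. In bulk tissue, fewer cells of a type and less RNA per cell cannot be told apart.

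The array of AGED male replicate 1 stood apart. Its 75th percentile was 9.39 (log2), while the remaining AGED males had 10.13 to 10.24, and 52.4% of its probes were well above background compared with at least 58.7% on every other array. It gave the highest level of all 16 arrays for 10 of 10 T cell genes, and for 18.6% of all genes. Its levels lay above the mean of the other 3 AGED males by a median of 3.0 over the 10 genes and of -0.04 over all genes. The distance was widest for Ccl5 at 20.7-fold, followed by Gzmb at 13.5-fold and Gzma at 12.5-fold, and narrowest for Cd4 at 1.82-fold. Comparisons with males are therefore given with and without this array. Leaving it out lowers the AGED male mean of each of the 10 genes. The share of all genes called is thus not a like background in the comparisons without it.

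None of the 10 genes was called between AGED and MAT bladders in either sex. In males 0 of 10 were called beside 0.847% of all genes, 1 had an unadjusted p under 0.05 (Cd3d), and no gene had groups that did not overlap beside 7.97% of all genes. The median difference was 0.44, with 8 of 10 above 0, while the median over all genes was 0.001. Without AGED male replicate 1 the median was -0.09, with 4 of 10 above 0. Again 0 of 10 were called beside 1.12% of all genes, and Gzma and Gzmb had an unadjusted p under 0.05. In females 0 of 10 were called beside 0.187% of all genes, none had an unadjusted p under 0.05, none had groups without overlap beside 10.8% of all genes, and the median difference was -0.05.

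**Figure D1:**
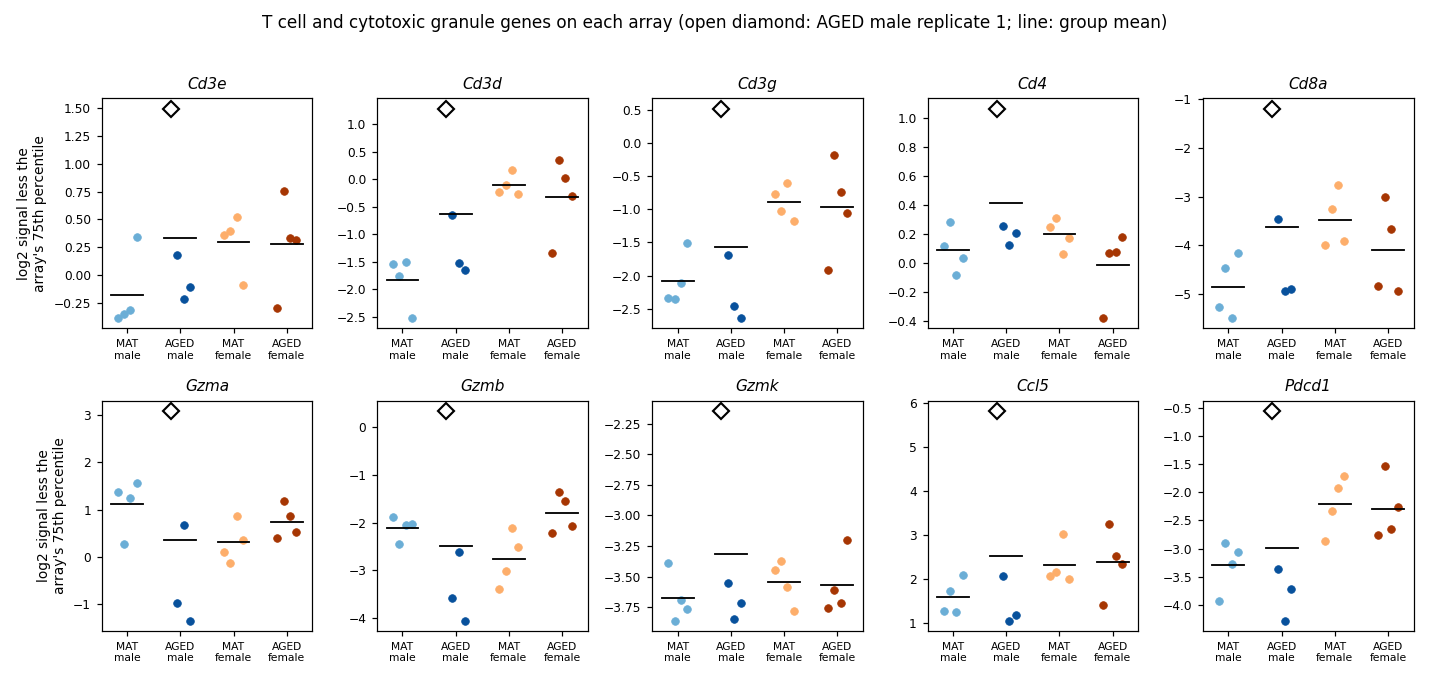
Log2 signal less the array's 75th percentile (y axis) of the 10 T cell and granule genes on each of the 16 arrays, by group. Points are arrays, lines are group means and the open diamond is AGED male replicate 1, which is the highest array in all 10 panels, for Ccl5 at 5.81 with the next array at 3.25.

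The CD3 chains carry the signal of the T cell receptor into the cell, and their genes Cd3g, Cd3d and Cd3e lie next to each other on chromosome 9 with 0 protein-coding genes between neighbours. Cd3d read -1.54, -1.75, -1.5 and -2.52 in MAT males and 1.28, -0.66, -1.52 and -1.65 in AGED males, replicates 1 to 4. AGED male replicates 1 and 2 lay above every MAT male, and the other 2 AGED males lay among them. The difference was 1.19 (0.07 to 2.31, adjusted p 0.275), and 0.55 without replicate 1 (-0.24 to 1.34, adjusted p 0.473).

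Cd3g read -2.34, -2.36, -2.11 and -1.52 in MAT males and 0.52, -1.69, -2.46 and -2.64 in AGED males. Apart from replicate 1 the AGED males lay within or below the range of MAT males. The difference was 0.51 (-0.65 to 1.67, adjusted p 0.669) with replicate 1 and -0.18 without it (-0.94 to 0.57, adjusted p 0.834).

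Cd3e read -0.39, -0.35, -0.32 and 0.34 in MAT males and 1.5, 0.18, -0.22 and -0.11 in AGED males. MAT male replicate 4 stood above the rest of its group and above 3 of the AGED males. The difference was 0.51 (-0.19 to 1.22, adjusted p 0.457), and 0.13 without AGED male replicate 1 (-0.39 to 0.65, adjusted p 0.833).

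In MAT and AGED females, replicates 1 to 4, Cd3e read 0.36, 0.40, 0.52 and -0.09, then -0.29, 0.75, 0.34 and 0.31. Cd3d read -0.23, -0.10, 0.17 and -0.27, then -1.34, 0.35, 0.03 and -0.31. Cd3g read -0.77, -1.02, -0.60 and -1.17, then -1.92, -0.18, -0.74 and -1.06. The age groups overlapped for all 3 chains, and the differences were -0.02 for Cd3e, -0.21 for Cd3d and -0.08 for Cd3g. AGED female replicate 1 gave the lowest level of the 8 female arrays for each of them, at -0.29, -1.34 and -1.92 in that order.

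Cd4, the coreceptor of helper T cells that macrophages and dendritic cells can also carry, varied least between arrays. It read 0.12, 0.28, -0.08 and 0.04 in MAT males and 1.06, 0.25, 0.13 and 0.21 in AGED males. Only replicate 1 of the AGED males lay above every MAT male. The difference was 0.32 (-0.08 to 0.73, adjusted p 0.411), and 0.11 without that array (-0.19 to 0.40, adjusted p 0.735). Females read 0.25, 0.31, 0.07 and 0.17 at the MAT age and -0.38, 0.07, 0.07 and 0.18 at the AGED age, a difference of -0.21 (-0.61 to 0.19, adjusted p 0.758) between overlapping groups. A second Cd4 probe was well above background on 6 arrays and was dimmer, so it was not the probe tested.

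Cd8a, a chain of the coreceptor of cytotoxic T cells, read -5.28, -4.48, -5.49 and -4.16 in MAT males and -1.19, -3.46, -4.95 and -4.90 in AGED males. Replicates 1 and 2 of the AGED males lay above every MAT male and the others among them. The difference was 1.23 (-0.26 to 2.72, adjusted p 0.4), and 0.42 without replicate 1 (-0.72 to 1.55, adjusted p 0.733). Females read -4.0, -3.26, -2.76 and -3.92 at the MAT age and -4.83, -3.01, -3.66 and -4.93 at the AGED age, a difference of -0.62 (-2.12 to 0.87, adjusted p 0.822) between overlapping groups. A second Cd8a probe was well above background on 3 arrays and was not kept.

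Granzymes are the proteases of the cytotoxic granule. Gzma and Gzmk are neighbours on chromosome 13 with 0 protein-coding genes between them, and Gzmb is on chromosome 14. Gzma and Gzmb were not called by age, but in males without AGED male replicate 1 both had an unadjusted p under 0.05 in limma. The 250 bases before each annotated start are therefore shown for both, and for Gzmk as the neighbour of Gzma. These bases come from RefSeq (GRCm38.p6), where 8 of the 10 genes had an entry. Capitals mark matches on either strand to TGTGGT (Runx, read ACCACA on the reverse strand), GGTGTGA (T-box) and TGANTCA (AP-1), which do not overlap here.

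Gzma, minus strand, chr13:113100982-113101231: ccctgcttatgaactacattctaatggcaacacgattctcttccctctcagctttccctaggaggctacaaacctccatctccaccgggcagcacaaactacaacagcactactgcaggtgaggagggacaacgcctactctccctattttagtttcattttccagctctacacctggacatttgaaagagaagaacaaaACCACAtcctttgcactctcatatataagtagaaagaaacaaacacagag
Gzmb, minus strand, chr14:56262335-56262584: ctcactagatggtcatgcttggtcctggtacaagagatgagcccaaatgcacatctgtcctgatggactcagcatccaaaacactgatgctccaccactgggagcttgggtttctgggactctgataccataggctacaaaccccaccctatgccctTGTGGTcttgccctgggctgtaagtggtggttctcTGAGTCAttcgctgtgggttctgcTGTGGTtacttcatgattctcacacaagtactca
Gzmk, minus strand, chr13:113180966-113181215: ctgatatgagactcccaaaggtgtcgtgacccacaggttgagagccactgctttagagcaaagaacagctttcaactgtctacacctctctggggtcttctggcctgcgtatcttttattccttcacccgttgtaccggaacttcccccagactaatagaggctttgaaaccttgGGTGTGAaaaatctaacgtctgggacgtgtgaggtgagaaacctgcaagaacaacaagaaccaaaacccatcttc

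Gzma held 1 Runx match, 50 bases before the start. Gzmb held 2 Runx matches, 93 and 34 bases before the start, and 1 AP-1 match at 58 bases. Gzmk held 1 T-box match at 75 bases. Of all 32851 windows of this length, 14.0% held the Runx letters, 3.33% the T-box letters and 6.75% the AP-1 letters. Such letters thus also occur before other genes, and the matches describe the windows only.

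Gzma, a granzyme of cytotoxic T cells and natural killer cells, read 1.38, 0.27, 1.25 and 1.55 in MAT males and 3.09, -0.99, 0.66 and -1.35 in AGED males. AGED male replicate 1 lay above every MAT male, replicates 2 and 4 below every one, and replicate 3 among them. The difference was -0.76 (-2.25 to 0.73, adjusted p 0.614) with all arrays and -1.67 without replicate 1 (-2.61 to -0.74, adjusted p 0.0614, exact two-sided permutation p 0.0857). In females the levels were 0.10, -0.13, 0.87 and 0.37 at the MAT age and 0.40, 1.19, 0.86 and 0.52 at the AGED age. These groups overlapped, with a difference of 0.44 (-1.05 to 1.93, adjusted p 0.894).

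Gzmb, the granzyme that cleaves caspases in the target cell, read -1.88, -2.45, -2.04 and -2.03 in MAT males and 0.34, -3.58, -2.62 and -4.05 in AGED males. Replicates 2 to 4 of the AGED males lay below every MAT male and replicate 1 above every one. The difference was -0.38 (-1.82 to 1.07, adjusted p 0.812) with all arrays. Without replicate 1 it was -1.32 (-2.07 to -0.56, adjusted p 0.0675), and the groups did not overlap (exact two-sided permutation p 0.0286, the smallest that 3 against 4 arrays allow). The groups of 14% of all genes likewise did not overlap there.

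In females Gzmb read -3.39, -3.02, -2.11 and -2.5 at the MAT age and -2.22, -1.35, -1.54 and -2.07 at the AGED age. In all, 3 of the AGED females lay above every MAT female. The difference was 0.96 (-0.49 to 2.40, adjusted p 0.676).

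The age difference of Gzmb was compared between the sexes directly, as males minus females. It differed by -1.34 with all arrays (adjusted p 0.704) and by -2.27 without AGED male replicate 1 (-3.30 to -1.25, adjusted p 0.0378), a test added after the data were seen. Of the 10 genes 0 passed with all arrays, beside 0.149% of all genes, and only Gzmb passed without that array, beside 1.04%. Gzma differed by -2.11 in the latter test (-3.38 to -0.84, adjusted p 0.125). Leaving out 1 further array lost the Gzmb call in 12 of 15 fits, with adjusted p from 0.013 to 0.0903.

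Gzmk, a granzyme of a distinct set of memory T cells, read -3.39, -3.86, -3.69 and -3.77 in MAT males and -2.15, -3.55, -3.84 and -3.71 in AGED males. Females read -3.45, -3.37, -3.58 and -3.78 at the MAT age and -3.75, -3.61, -3.72 and -3.20 at the AGED age. Apart from AGED male replicate 1 all arrays lay between -3.86 and -3.20. The difference was 0.36 (-0.26 to 0.98, adjusted p 0.554) in males, -0.03 without replicate 1 (-0.37 to 0.32, adjusted p 0.953) and -0.02 in females (-0.64 to 0.59, adjusted p 0.99).

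Ccl5, a chemokine that draws T cells and monocytes, read 1.28, 1.73, 1.26 and 2.09 in MAT males and 5.81, 2.08, 1.06 and 1.18 in AGED males. Replicate 1 alone of the AGED males lay above the MAT males. The difference was 0.94 (-0.73 to 2.61, adjusted p 0.574), and -0.15 without that array (-1.01 to 0.70, adjusted p 0.885). Females read 2.07, 2.15, 3.01 and 2.0 at the MAT age and 1.41, 3.25, 2.53 and 2.35 at the AGED age, a difference of 0.08 (-1.60 to 1.75, adjusted p 0.987) with AGED females both below and above all MAT females.

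Pdcd1 read -3.93, -2.90, -3.28 and -3.06 in MAT males and -0.56, -3.36, -4.27 and -3.72 in AGED males, where replicate 3 was not well above background. Replicate 1 lay above every MAT male and the others within or below their range. The difference was 0.31 (-0.98 to 1.60, adjusted p 0.824), and -0.49 without replicate 1 (-1.25 to 0.27, adjusted p 0.51). Females read -2.87, -2.33, -1.92 and -1.71 at the MAT age and -2.76, -1.54, -2.66 and -2.26 at the AGED age, a difference of -0.09 (-1.38 to 1.19, adjusted p 0.979) between overlapping groups.

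**Figure D2:**
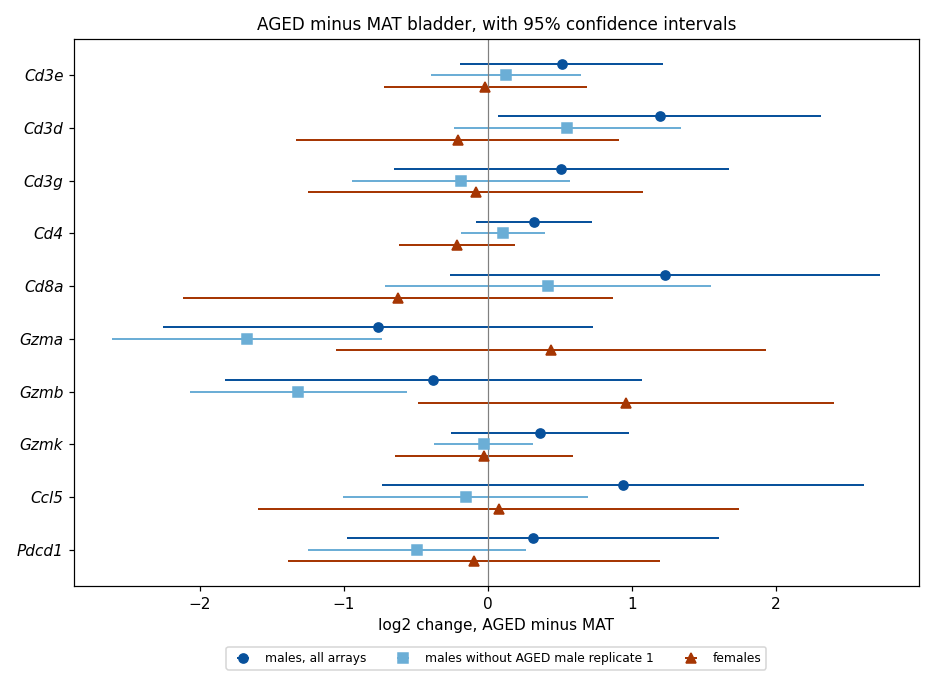
Difference AGED minus MAT (x axis, log2) of each of the 10 genes in males, in males without AGED male replicate 1 and in females, with 95% confidence intervals from limma. The intervals that leave out 0 are those of Cd3d in males (0.07 to 2.31) and, without that array, of Gzma (-2.61 to -0.74) and Gzmb (-2.07 to -0.56).

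The T cell genes followed the CD3 chains across arrays to different degrees. Each array's mean of the 3 chains, each centred on its own mean, was correlated with each gene as a description, since arrays share slides and groups. For Ccl5 Pearson's r was 0.90 over 16 arrays and 0.90 over the 15 without AGED male replicate 1 (Spearman's rho 0.88 and 0.85). Cd8a had r of 0.88 and 0.80, and Pdcd1 of 0.87 and 0.79, in the same order. The granzymes had lower values, and they were lower still without that array, at 0.43 and 0.08 for Gzma, 0.56 and 0.25 for Gzmb, and 0.70 and 0.43 for Gzmk. Cd4 had 0.58 and 0.17.

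Of all other genes with a symbol, Cd96 (r 0.97), Ms4a4b (0.97), Zap70 (0.96), Lck (0.95), Gpr174 (0.94) and Cd2 (0.94) were most like the chains over 16 arrays. Over 15 arrays they were Cd96 (0.96), Ms4a4b (0.95), Gpr174 (0.95), Zap70 (0.94), Lck (0.94) and Cd6 (0.93). Lck and Zap70 are the kinases that act on the CD3 chains, and Cd2, Cd6 and Cd96 encode surface receptors of T cells.

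**Figure D3:**
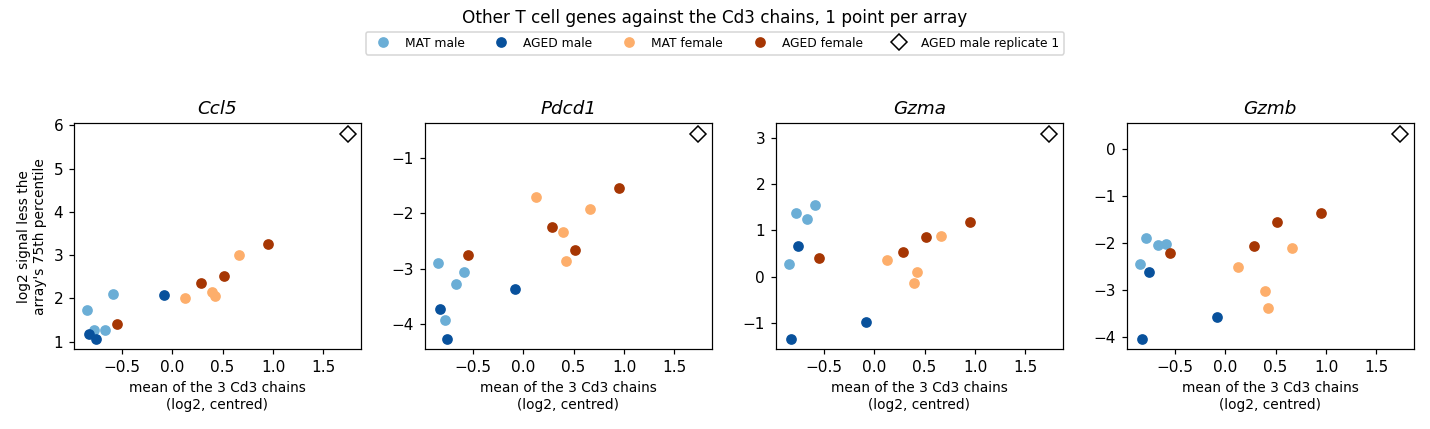
Log2 signal less the array's 75th percentile of Ccl5, Pdcd1, Gzma and Gzmb (y axis) against the mean of the 3 Cd3 chains (x axis, log2, centred), 1 point for each of 16 arrays, coloured by group. The open diamond at the upper right is AGED male replicate 1, without which r is 0.90 for Ccl5 and 0.08 for Gzma.

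Further genes of T cell receptor signalling, 20 of 21 listed, were tested and 0 were called by age in either sex. Their median difference was 0.74 in males with 19 of 20 above 0, 0.10 without AGED male replicate 1 with 15 of 20 above 0, and -0.16 in females with 6 of 20 above 0. The genes named here by rule are Lck and Thy1, which stromal cells and nerves also carry. Lck differed by 1.10 in males (adjusted p 0.284), 0.44 without that array (adjusted p 0.459) and -0.17 in females (adjusted p 0.948). Thy1 differed by 0.04, 0.13 and -0.30 with no call.

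Of 22 listed granule and cytotoxic effector genes 16 were tested, with a median of 0.10 in males, -0.20 without AGED male replicate 1 and -0.04 in females. Tbx21, which encodes T-bet, a transcription factor of cytotoxic and Th1 cells, rose in AGED males and was the only one called by age. Its levels lay between -0.87 and 0.06 in AGED males and between -1.75 and -1.45 in MAT males, a difference of 1.14 (0.72 to 1.55, adjusted p 0.00934). Without AGED male replicate 1 the difference was 0.97 (adjusted p 0.0115), under the 2-fold limit, and in females it was 0.06 (adjusted p 0.956). Srgn, the proteoglycan core of the granule, differed by -0.02 in males, -0.24 without that array and 0.29 in females, with no call. The granule membrane gene Nkg7 differed by 0.39, -0.10 and -0.14 in the same order, so its sign in males turned without that array. Prf1, which encodes perforin and was named after its values were seen, differed by 0.09 in males (adjusted p 0.799), -0.05 without that array (adjusted p 0.897) and 0.09 in females (adjusted p 0.907).

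No gene was called by age among 9 checkpoint and ligand genes, 10 chemokine receptors and T cell chemokines, and 4 regulatory T cell genes tested. Their medians in males were 0.21, 0.22 and -0.07, and without AGED male replicate 1 they were -0.29, -0.22 and -0.01. In females they were -0.20, 0.08 and 0.19. Cd274, which encodes the PD-1 ligand PD-L1, differed by 0.21 in males (adjusted p 0.777), by -0.25 without that array (adjusted p 0.402) and by 0.55 in females (adjusted p 0.592). Cd244a differed by -0.68, -0.42 and -0.21. Cxcr6, a receptor of tissue T cells, differed by 0.83, 0.24 and 0.09 and its ligand Cxcl16 by -0.23, -0.48 and -0.16. Of the 4 regulatory genes, Ikzf2 differed by 0.19, 0.41 and -0.11 and Il2ra by 0.41, 0.37 and 0.49 in that order. The others, Foxp3 and Il10, differed by -0.32, -0.38 and -0.34 and by -0.46, -1.22 and 0.64, and were well above background on 1 and 2 of the 4 AGED male arrays. Foxp3 was named after its values were seen.

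Markers of other leukocytes were also high on AGED male replicate 1. The mean of 8 macrophage genes was 2.93 there, 1.56 to 1.72 in the other AGED males and 1.56 to 1.77 in MAT males, and the array was highest for 4 of 8. The mean of 5 pan-leukocyte genes was 1.73 there and -0.17 to 0.53 in the other AGED males, and the mean of the 20 T cell signalling genes was -0.26 there and -2.89 to -2.01. AGED females came close for the macrophage mean (1.91 to 2.75) and the pan-leukocyte mean (0.45 to 1.72). Their T cell signalling mean was -2.33 to -1.29. On AGED male replicate 1 the mean of 7 B and plasma cell genes, at -1.92, was within the other AGED males (-4.02 to -1.78), and the array was highest for 0 of 7. It was highest for 0 of 4 dendritic cell, 0 of 4 mast cell and 1 of 5 neutrophil genes. Their part in the high T cell levels was not tested.

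In all, 3 genes of these other lists rose in AGED males, as labelled, with and without that array. They were the neutrophil genes S100a8 (2.43, and 1.98 without it) and S100a9 (3.08, and 2.84), and the follicle chemokine Cxcl13 (4.29, and 3.67). Their adjusted p lay between 0.000663 and 0.0332. The lists that hold them were mixed in males, with and without that array. Of 5 neutrophil genes tested 3 were higher in AGED males and 2 lower. Of 6 lymphoid tissue stroma genes tested 2 were higher and 4 lower. The study lists S100a9 in the opposite direction with age.

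**Figure D4:**
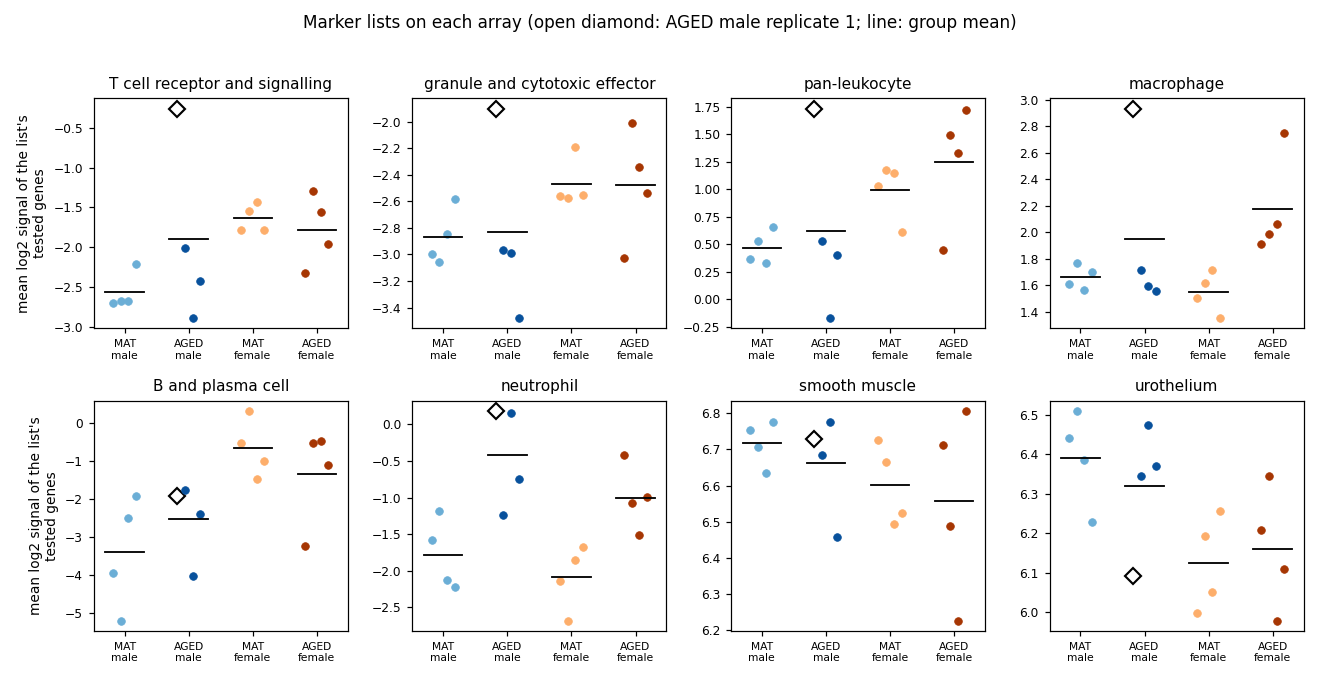
Mean log2 signal less the array's 75th percentile (y axis) of the tested genes of 8 marker lists on each of the 16 arrays, by group, with group means as lines. AGED male replicate 1, the open diamond, is highest for T cell receptor and signalling genes (-0.26), granule and cytotoxic effector genes (-1.90) and macrophage genes (2.93). It is also highest, by a small margin, for pan-leukocyte genes (1.73) and neutrophil genes (0.18). For B and plasma cell genes (-1.92) it lies among the other AGED males.

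Females were compared with males after the data were seen. The sexes lay on separate slides, so sex and slide cannot be told apart. Among MAT mice 0 of 10 genes were called beside 0.157% of all genes, and 2 had an unadjusted p under 0.05. Cd3d, Cd3g, Cd8a and Pdcd1 were nevertheless higher in every MAT female than in any MAT male. Of all genes, 18.9% had groups without overlap, 4.43% being higher and 14.5% lower in females. Cd3d read -0.23, -0.10, 0.17 and -0.27 in MAT females, all above the highest MAT male at -1.5, a difference of 1.72 (0.60 to 2.84, adjusted p 0.157). The differences of Cd8a, Cd3g and Pdcd1 were 1.37, 1.19 and 1.09 with adjusted p from 0.343 to 0.441, and the exact two-sided permutation p of all 4 was 0.0286, the smallest that 4 against 4 arrays allow. Gzma and Gzmb were lower in the mean of MAT females, by -0.81 (adjusted p 0.646) and -0.65 (adjusted p 0.711), with overlapping groups. The median difference of the 10 genes was 0.60, with 8 of 10 above 0, and that of all genes -0.08.

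Other lymphocyte genes differed in the same comparison. All 20 T cell signalling genes tested were higher in the mean of MAT females, with a median of 0.97, 13 of 20 without overlap and 0 called. The 7 B and plasma cell genes were all higher, with a median of 3.17, and the B cell kinase gene Blk was called at no less than 2.83-fold (adjusted p 0.0167), as it was not well above background on any MAT male array. The pan-leukocyte genes had a median of 0.55 and the macrophage genes of -0.10. The part of these cells in the T cell values was not tested.

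Among AGED mice without AGED male replicate 1, Gzmb, Pdcd1 and Cd3g were called higher in females, 3 of 10 genes beside 4.64% of all genes. Gzmb differed by 1.62 (0.87 to 2.37, adjusted p 0.00921) and Pdcd1 by 1.48 (0.73 to 2.24, adjusted p 0.0146), and for both the groups did not overlap, as for 24.2% of all genes. Cd3g differed by 1.29 (0.53 to 2.05, adjusted p 0.0271), with AGED female replicate 1 at -1.92 below AGED male replicate 2 at -1.69. Pdcd1 was well above background on 2 of the 3 male arrays. The call of Gzmb was lost with normexp background correction (0.90, under 2-fold). Leaving out 1 further array lost that of Cd3g in 5 of 15 fits and that of Pdcd1 without AGED male replicate 3. With AGED male replicate 1 included 0 of 10 were called, beside 3.11% of all genes. The median difference of the 10 genes was 0.95 without that array and 0.13 with it.

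Further immune genes were called higher in AGED females in the comparison without that array. Among T cell and natural killer genes these included the transcription factor gene Eomes (1.82), the checkpoint receptors Havcr2 (1.72) and Lag3 (1.05), the chemokines Ccl4 (2.47) and Cxcl9 (2.40), and Il10 (1.85), with adjusted p from 0.00769 to 0.0403. Eomes, Il10 and Glycam1, a gene of lymphoid tissue vessels, were each well above background on 1 of the 3 AGED male arrays. Klre1, Ncr1, Tigit and Pdcd1lg2 were not well above background on any of the 3 AGED male arrays. They were well above it on 3, 2, 2 and 4 of the 4 AGED female arrays in that order. Pdcd1lg2 was at least 3.03-fold higher. The values for Klre1 (3.53-fold), Ncr1 (2.78-fold) and Tigit (3-fold) are not firm lower limits, as their AGED female arrays below background were taken as read. The macrophage genes Adgre1 (1.41) and Fcgr1 (2.07), the dendritic cell genes Itgax (1.56) and Clec9a (1.41), the pan-leukocyte gene Laptm5 (1.23) and Glycam1 (3.04) were called as well, while Cxcl13 was lower in AGED females (-1.54). With that array included, 3.11% of all genes were called, and 0 in the T cell signalling, chemokine, regulatory T cell, pan-leukocyte and macrophage lists. Called higher in AGED females then were 2 granule, 1 checkpoint, 2 dendritic cell and 1 lymphoid tissue stroma genes, with 1 stroma gene lower. The part of these cells in the T cell values was not tested.

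**Figure D5:**
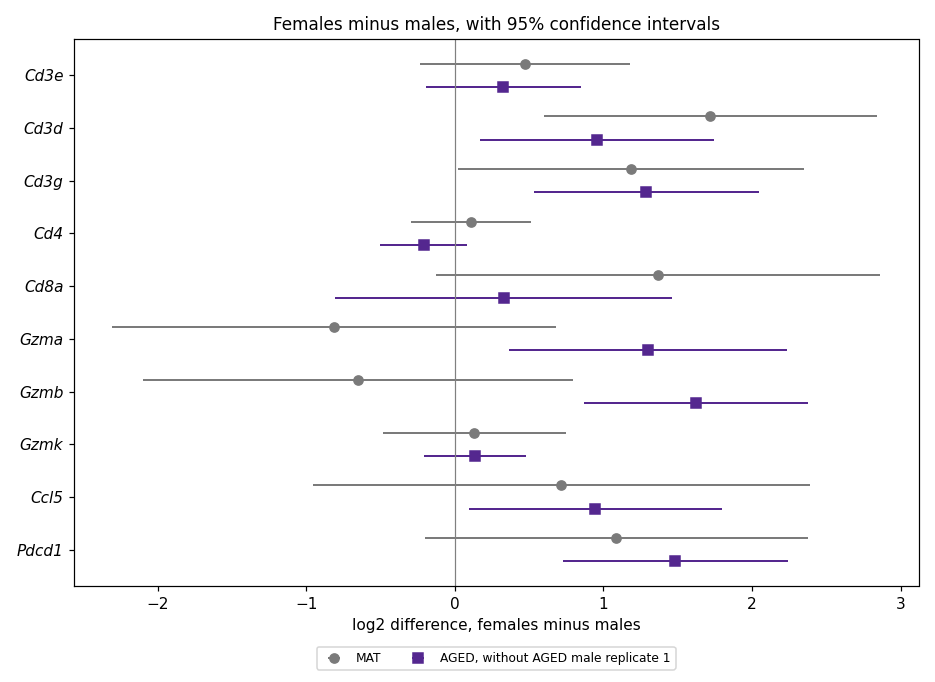
Difference females minus males (x axis, log2) of each of the 10 genes in MAT mice and, without AGED male replicate 1, in AGED mice, with 95% confidence intervals from limma. Gzmb (1.62), Pdcd1 (1.48) and Cd3g (1.29) were called in AGED mice and 0 genes in MAT mice. With AGED male replicate 1 included, 0 of the 10 genes were called in AGED mice.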

How the data were processed

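RNA of 16 mouse bladder bodies, 4 in each group, was measured on 1-colour arrays. The authors labelled the RNA with Cy3 and read the scans with Feature Extraction, version 10.7.3.1 per the file headers and 9.1 in the submitters' processing notes. The intensity used from each deposited file is the processed signal, background-subtracted and not scaled between arrays. The authors' own value table, in log2 and centred for each probe, served as an alternative.

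For this work the log2 processed signal less the array's 75th percentile was taken, leaving out control spots and 399 values marked as outliers. Probes well above background on at least 4 of 16 arrays were kept (36982 of 55681). Accessions gave 26582 probes a symbol, and the brightest kept probe of a gene was tested. Group means were fitted over all 16 arrays (12 residual degrees of freedom), or over 15, with limma 3.58.1 in R 4.3.3. The procedure was tested on simulated data. The number of arrays limits the precision.

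Females lay on one slide and males on the other, with MAT and AGED arrays in different rows, so age cannot be told apart from row, or sex from slide. Ages and sexes were taken from the deposited labels. The genes, lists and tests were chosen with earlier results of these data known. Named genes were the 10, genes of the other lists that were called, the 2 with the highest mean signal in each of 5 T cell lists, and the 6 most correlated with the CD3 chains. Not every gene under this rule is reported here. The sex comparisons, and the difference between sexes without AGED male replicate 1, were added after the data were seen. Alternatives changed the scaling, background correction, value source, filter, probe choice, samples fitted, variance model, replicate block, test and fold limit, and left out each array.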

Additional observations from a re-analysis of the deposited data

Results flagged for a closer look

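In each group of 4 arrays the gap between the extreme array and its neighbour was divided by the group's range and compared with Dixon's critical value, which chance exceeds in about 1 in 20 groups. Of 64 groups 7 exceeded it, and 3 of 40 among the groups of a single T cell gene. For those genes, Cd3e was high on MAT male replicate 4 (0.905), Cd4 on AGED male replicate 1 (0.865) and Ccl5 on MAT female replicate 3 (0.856). AGED male replicate 1 had a low 75th percentile (0.873) and a high macrophage list mean (0.885). The T cell signalling list mean was high on MAT male replicate 4 (0.958), and the granule list mean on MAT female replicate 3 (0.938).

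The age difference of Gzmb differed between males and females without AGED male replicate 1, by -2.27 (adjusted p 0.0378 in limma). That test was added after the data were seen. With all arrays the difference was -1.34 (adjusted p 0.704 in limma). Leaving out 1 further array lost the call in 12 of 15 fits.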

How the results depend on the processing

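With 14 other settings, 0 of the 10 genes were called in males, in females and in the difference between sexes with all arrays, wherever the setting applied. In males without AGED male replicate 1 normexp background correction, array weights and a variance trend each called 1 gene (Gzma), and the methods' t-test 2 (Gzma and Gzmb). In the difference between sexes without that array, 0 were called with no filter on dim probes (Gzmb, adjusted p 0.0668) and 2 with array weights (Gzma and Gzmb). In MAT females against MAT males, array weights and the methods' t-test each called 4 (Cd3d, Cd3g, Cd8a and Pdcd1), and the t-test after Benjamini-Hochberg adjustment 1 (Cd3d). In AGED females against AGED males without that array, array weights called 1 (Gzmb), the adjusted t-test 0, and normexp Cd3g and Pdcd1 but not Gzmb (0.90, adjusted p 0.0115). The causes were not tested.

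Leaving out 1 array gave 0 to 2 genes called in males without AGED male replicate 1 (2 without AGED male replicate 3 as well, 1 without MAT male replicate 2). It gave 0 to 1 in the difference between sexes (Gzmb, without AGED male replicate 1) and 0 to 2 in that difference without the array, where Gzmb stayed called only without AGED female replicate 1, AGED male replicate 3 or MAT female replicate 3. It gave 0 to 1 in MAT females against MAT males (Cd3d, without AGED male replicate 1). In AGED females against AGED males, always without AGED male replicate 1, it gave 2 to 5 (5 without AGED female replicate 1 as well). There Gzmb stayed called in all 15 fits. Cd3g was lost without AGED female replicates 2, 3 or 4 or AGED male replicates 3 or 4 (adjusted p up to 0.0939), and Pdcd1 without AGED male replicate 3 (0.0694).

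Some uncalled differences changed sign. All those between AGED sexes leave out AGED male replicate 1. With normexp they became -0.0030 for Cd3g in males, 0.079 for Cd3e and 0.028 for Gzmk in females, 0.10 for Gzmk in males without AGED male replicate 1, -0.085 for Gzmk between MAT sexes, and -0.047 for Cd8a and -0.16 for Gzmk between AGED sexes. With array weights they became 0.058 for Pdcd1 in females, and 0.025 for Cd3g and 0.19 for Ccl5 in males without that array. With the mean of the probes Cd4 became -0.15 in males without that array and 0.19 between AGED sexes.

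With 1 array left out, the ranges that crossed 0 in males were -0.18 to 0.87 for Cd3g, -1.32 to 0.15 for Gzmb, -0.027 to 0.54 for Gzmk, -0.15 to 1.43 for Ccl5 and -0.49 to 0.74 for Pdcd1. In females they were -0.18 to 0.17 for Cd3e, -0.43 to 0.13 for Cd3d, -0.35 to 0.23 for Cd3g, -0.15 to 0.037 for Gzmk, -0.21 to 0.40 for Ccl5 and -0.35 to 0.071 for Pdcd1. In males without AGED male replicate 1 they were -0.47 to 0.0034 for Cd3g, -0.072 to 0.67 for Cd8a, -0.10 to 0.069 for Gzmk and -0.47 to 0.036 for Ccl5. Between AGED sexes, also without that array, the range was -0.037 to 0.82 for Cd8a.

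Replicate numbers of the labels showed no pairing of AGED with MAT arrays in correlations of levels centred within groups. These ran from -0.148 to 0.066 for same-numbered arrays and from -0.164 to 0.200 for the others. The number was also the column on the slide, so number and column cannot be told apart. With the number as a replicate block 0 of the 10 genes were called in males and in females. Without AGED male replicate 1, 1 (Gzmb) was called in the difference between sexes and 3 between AGED sexes. Calls over all genes went from 227 to 183 in males and from 50 to 3 in females. In males 756 genes were called with normexp, 547 with no filter, 469 with no fold limit, 14 with males fitted alone and 496 by the methods' t-test, or 0 of them after adjustment. In females 200 were called with array weights, 94 alone, 18 with no filter and 393 by that t-test, or 1 after adjustment. Normexp moved the median difference of all genes in males to 0.118.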
